A study of Homo sapiens with 4 samples.

Results

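The genes described are the cytosolic heat shock proteins with their J-domain cochaperones and regulators. They were chosen by symbol: the HSP70 genes (HSPA), the HSP110 gene HSPH1, the HSP90A genes, the small heat shock protein genes (HSPB), the J-domain genes (DNAJA, DNAJB, DNAJC), BAG1 to BAG6, the heat shock factor genes HSF1, HSF2, HSF4 and HSF5, and AHSA1, STIP1, SERPINH1 and CHORDC1. Of 84 matching symbols among 20263 listed genes, 7 were left out by name as chaperones of other compartments (HSPA5, HSPA9, HSPA13, DNAJB9, DNAJB11, DNAJC3 and DNAJC10), 2 were readthrough genes, and 8 had fewer than 10 counts in at least 3 of the 4 libraries. The remaining 67 genes had at least 10 counts in at least 2 libraries, and all 67 were among the 14062 genes tested. The name covers most but not all of them. Among those it does not cover are SERPINH1, a collagen chaperone of the endoplasmic reticulum, and DNAJC13, an endosomal protein. Others among them are DNAJA3, DNAJC11, DNAJC15, DNAJC19 and DNAJC30, known as mitochondrial proteins. DNAJB12, DNAJB14, DNAJC1 and DNAJC16 are known from the endoplasmic reticulum membrane or lumen.

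The RNA came from HCT116, an established line of human colorectal carcinoma cells. They had received HJ-23 at 30 µM for 24 hours or DMSO, the solvent, at 0.1% for the same time, with 2 libraries in each group. The submitters describe HJ-23 as derived from piperine, an alkaloid of black pepper. The titles name HJ-23 where the treatment field of the same samples has HJ-25, and the count tables carry the letters C and D with no key, so every direction given here rests on the titles. Since the labels do not state that the libraries of a group are from separate cultures, the p-values cover the spread between these libraries alone, which may be technical.

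HSP70 proteins bind exposed hydrophobic stretches of unfolded polypeptides in a cycle driven by ATP. J-domain proteins deliver the substrate and start ATP hydrolysis, HSP110 and BAG proteins exchange the nucleotide, and HSP90 with its cochaperones takes over many clients, kinases and steroid receptors among them. When unfolded protein builds up, HSF1 forms trimers and binds heat shock elements, inverted repeats of the letters GAA, in the promoters of HSPA1A, HSPA1B, DNAJB1 and HSPB1. Several carcinoma lines hold high levels of these proteins without heat, and HSP90, HSP70 and HSF1 have been studied as drug targets in colorectal cancer.

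Promoter sequence is shown for 5 of the genes because the DNA letters that HSF1 is known to bind can be read there, and because HSPA1A, HSPA1B and DNAJB1 had closely similar patterns over the libraries. The stretch printed is the 250 bases before 1 RefSeq start of the gene, assembly GRCh38.p14, written 5′ to 3′ on the strand of the gene. Any other starts of a gene were not searched. DNAJB1 lies on the minus strand at chr19:14529272-14529521. HSPA1A and HSPA1B lie on the plus strand at chr6:31815293-31815542 and chr6:31827488-31827737. HSPA8 and CHORDC1 lie on the minus strand at chr11:123062137-123062386 and chr11:90223050-90223299. Capitals mark every match to a heat shock element. An element of 2 units is GAA followed by TTC, or TTC followed by GAA, with any 2 bases (NN) between the units, and an element of 3 units adds the first unit again after another NN. Both 2-unit forms read the same on the other strand, the 3-unit forms are each other's reverse complement, and a 3-unit match always contains overlapping 2-unit matches.
HSPA1A: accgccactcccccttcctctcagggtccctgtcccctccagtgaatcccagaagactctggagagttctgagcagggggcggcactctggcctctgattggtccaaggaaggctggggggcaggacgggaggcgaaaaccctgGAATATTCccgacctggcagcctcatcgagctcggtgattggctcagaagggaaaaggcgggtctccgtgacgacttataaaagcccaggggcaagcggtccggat
HSPA1B: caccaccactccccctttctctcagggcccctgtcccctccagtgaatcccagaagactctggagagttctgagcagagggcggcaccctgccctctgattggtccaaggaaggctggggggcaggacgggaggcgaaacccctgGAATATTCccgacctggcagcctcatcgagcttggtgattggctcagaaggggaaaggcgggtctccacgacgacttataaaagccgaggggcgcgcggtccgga
DNAJB1: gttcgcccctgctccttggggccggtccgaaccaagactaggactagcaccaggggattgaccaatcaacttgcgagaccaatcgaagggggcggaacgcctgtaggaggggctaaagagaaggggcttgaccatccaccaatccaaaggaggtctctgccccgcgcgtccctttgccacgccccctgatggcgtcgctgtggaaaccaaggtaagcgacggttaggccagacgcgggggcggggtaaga
HSPA8: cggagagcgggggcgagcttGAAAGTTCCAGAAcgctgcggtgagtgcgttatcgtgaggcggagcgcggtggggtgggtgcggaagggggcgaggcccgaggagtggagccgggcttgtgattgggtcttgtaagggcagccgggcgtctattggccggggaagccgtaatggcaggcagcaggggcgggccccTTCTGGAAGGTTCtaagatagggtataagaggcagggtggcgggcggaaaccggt
CHORDC1: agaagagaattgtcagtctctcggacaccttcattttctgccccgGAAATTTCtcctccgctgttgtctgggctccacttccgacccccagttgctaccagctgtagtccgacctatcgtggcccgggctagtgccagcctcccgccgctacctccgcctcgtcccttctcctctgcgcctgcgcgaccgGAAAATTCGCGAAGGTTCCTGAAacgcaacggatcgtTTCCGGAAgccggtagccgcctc
After a global alignment, the HSPA1A and HSPA1B stretches were identical at 235 of 250 bases (94%), and each held 1 match of 2 units. HSPA8 held 4 overlapping 2-unit matches that form 2 matches of 3 units. CHORDC1 held 6 matches of 2 units and 3 of 3 units. No match of either form was found in the DNAJB1 stretch. This says only that these letters are not in this window, and nothing about other starts of DNAJB1. RefSeq promoters were at hand for 60 of the 67 genes. In windows from 250 bases before to 50 after the start, 14 of the 60 (23.3%) held a 2-unit match, against 13.7% of 27305 promoters. A 3-unit match was found in 5 of the 60 (8.33%), namely CHORDC1, DNAJA1, DNAJB6, HSPA8 and SERPINH1, against 0.487% of all promoters.

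Total counts were 34406649 and 34831207 in the HJ-23 libraries and 31120459 and 29769568 in the DMSO libraries. Levels below are in CPM, counts scaled to the TMM-adjusted library size. Of 10 markers of colon epithelial lines, 6 (EPCAM, CDH1, KRT8, KRT18, KRT19 and CDX2) had at least 10 CPM in every library, and 4 (KRT20, VIL1, LGALS4 and CEACAM5) were under 1 CPM in every library. The summed levels of the 10 were 4049 and 5514 CPM with HJ-23 and 4522 and 4095 CPM with DMSO. Of 5 leukocyte and 5 fibroblast markers, PTPRC, CD3E, COL1A2 and DCN had no count in any library, and CD68 and COL1A1 alone reached 10 CPM. The leukocyte sum was 41.5 and 51.4 CPM with HJ-23 and 40.8 and 35.0 CPM with DMSO, nearly all of it CD68, and the fibroblast sum was 55.8 and 60.5 CPM with HJ-23 and 63.7 and 61.5 CPM with DMSO. No endothelial marker was above 1.25 CPM. The part of these markers in the results was not tested. The libraries of 1 group differed from each other along transcript GC content. For the 67 genes, the ratio of HJ-23 replicate 1 to replicate 2 correlated with GC content at Spearman -0.71, and that of DMSO replicate 1 to replicate 2 at 0.23. Over 14047 tested genes the same correlations were -0.62 and 0.35, and the log2 fold change correlated with GC at 0.38 (0.27 over the 67 genes). These correlations are descriptions, since the genes share libraries. In HJ-23 replicate 1, 31 of the 34 genes at or under the median GC content of 47.5% were higher than in replicate 2, against 8 of the 33 genes above it. For the DMSO libraries, 12 of the 34 and 19 of the 33 were higher in replicate 1. Values from a fit with a GC and length correction for each library are given beside the main ones as the value with the correction.

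**Figure D1:**
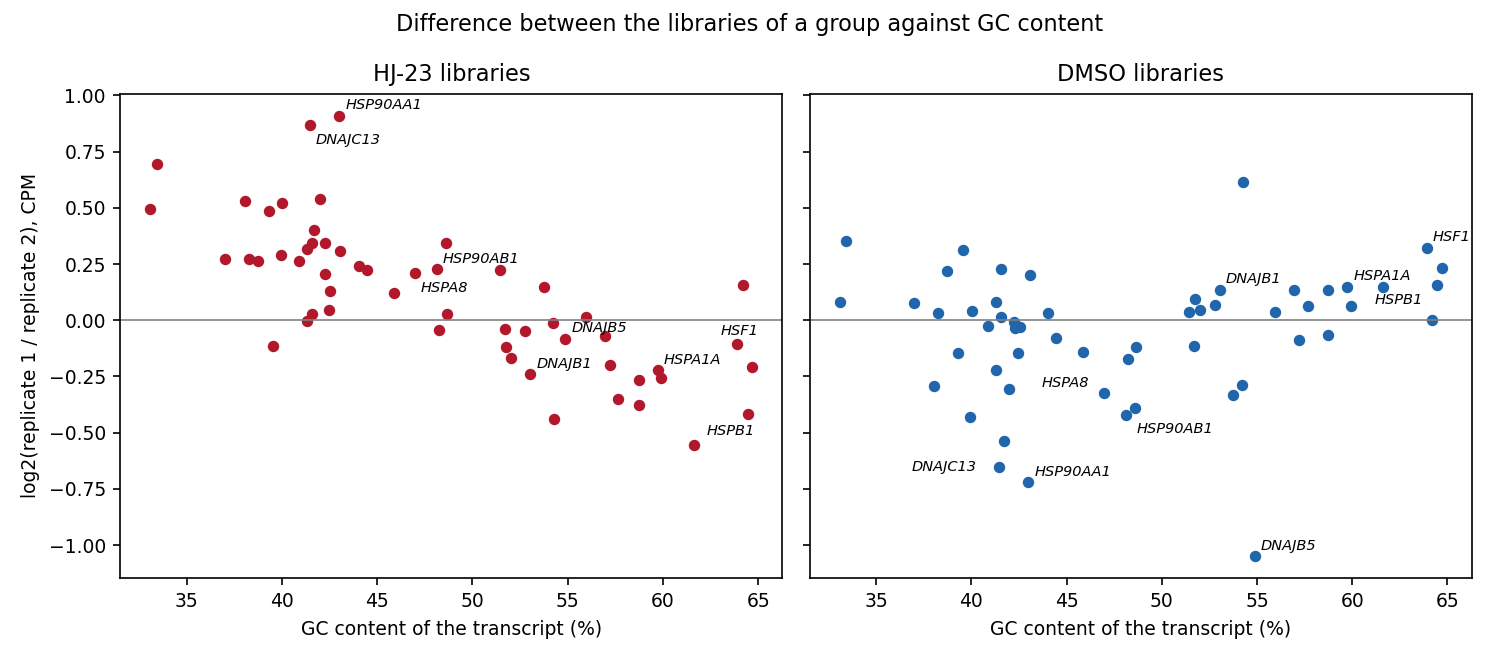
Log2 ratio of CPM in replicate 1 over replicate 2 (y axis) against GC content of the transcript in percent (x axis) for the 55 genes with a mean of at least 10 CPM, with the HJ-23 libraries on the left and the DMSO libraries on the right. Among HJ-23 libraries the points run downward with GC content, and HSP90AA1, at 43.0% GC, is among the genes farthest from 0 in both panels, in opposite directions.

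None of the 67 genes passed edgeR's quasi-likelihood test at an adjusted p of 0.05, with 0 higher and 0 lower in HJ-23. The background was low as well: 8 of 14062 genes were called higher (0.0569%) and 4 lower (0.0284%). At an unadjusted p under 0.05, 4 of the 67 were higher in HJ-23 (BAG3, BAG1, DNAJC11 and HSF1), where 6.77% of all genes were. On the lower side 6 were (HSPA2, HSPA1A, HSPA1B, HSPA8, HSP90AB1 and DNAJB1), where 5.25% of all genes were. HSPA1A and HSPA1B share most of their sequence, but are counted here and below as separate genes. DESeq2 called 1 of the 67 higher, HSF1, and 2 lower, HSPA2 and DNAJB1, against 0.963% and 0.897% of the genes it tested. Its unadjusted p was under 0.05 for 3 of the 67 on the higher side (4.76% of all genes) and 6 on the lower side (4.74%). With the GC and length correction edgeR again called 0 of the 67 in either direction, against 0.171% and 0.0997% of all genes. At an unadjusted p under 0.05 that fit had 6 higher (9.74% of all genes) and 10 lower (7.95% of all genes).

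Read by the libraries themselves, 14 of the 67 genes had both HJ-23 libraries above both DMSO libraries, where 24.8% of all genes did. Another 21 had both HJ-23 libraries below both DMSO libraries, where 21.2% of all genes did, and for 32 the groups overlapped. A positive log2 fold change was found for 29 of the 67, against 51% of all genes, and for 32 with the GC and length correction, against 50.8%. The median log2 fold change was -0.026 for the 67 genes and 0.0086 for all genes tested, and with the correction -0.041 and 0.0051. In RNA from bulk cultures, fewer cells making a transcript and less of it in each cell cannot be told apart.

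**Figure D2:**
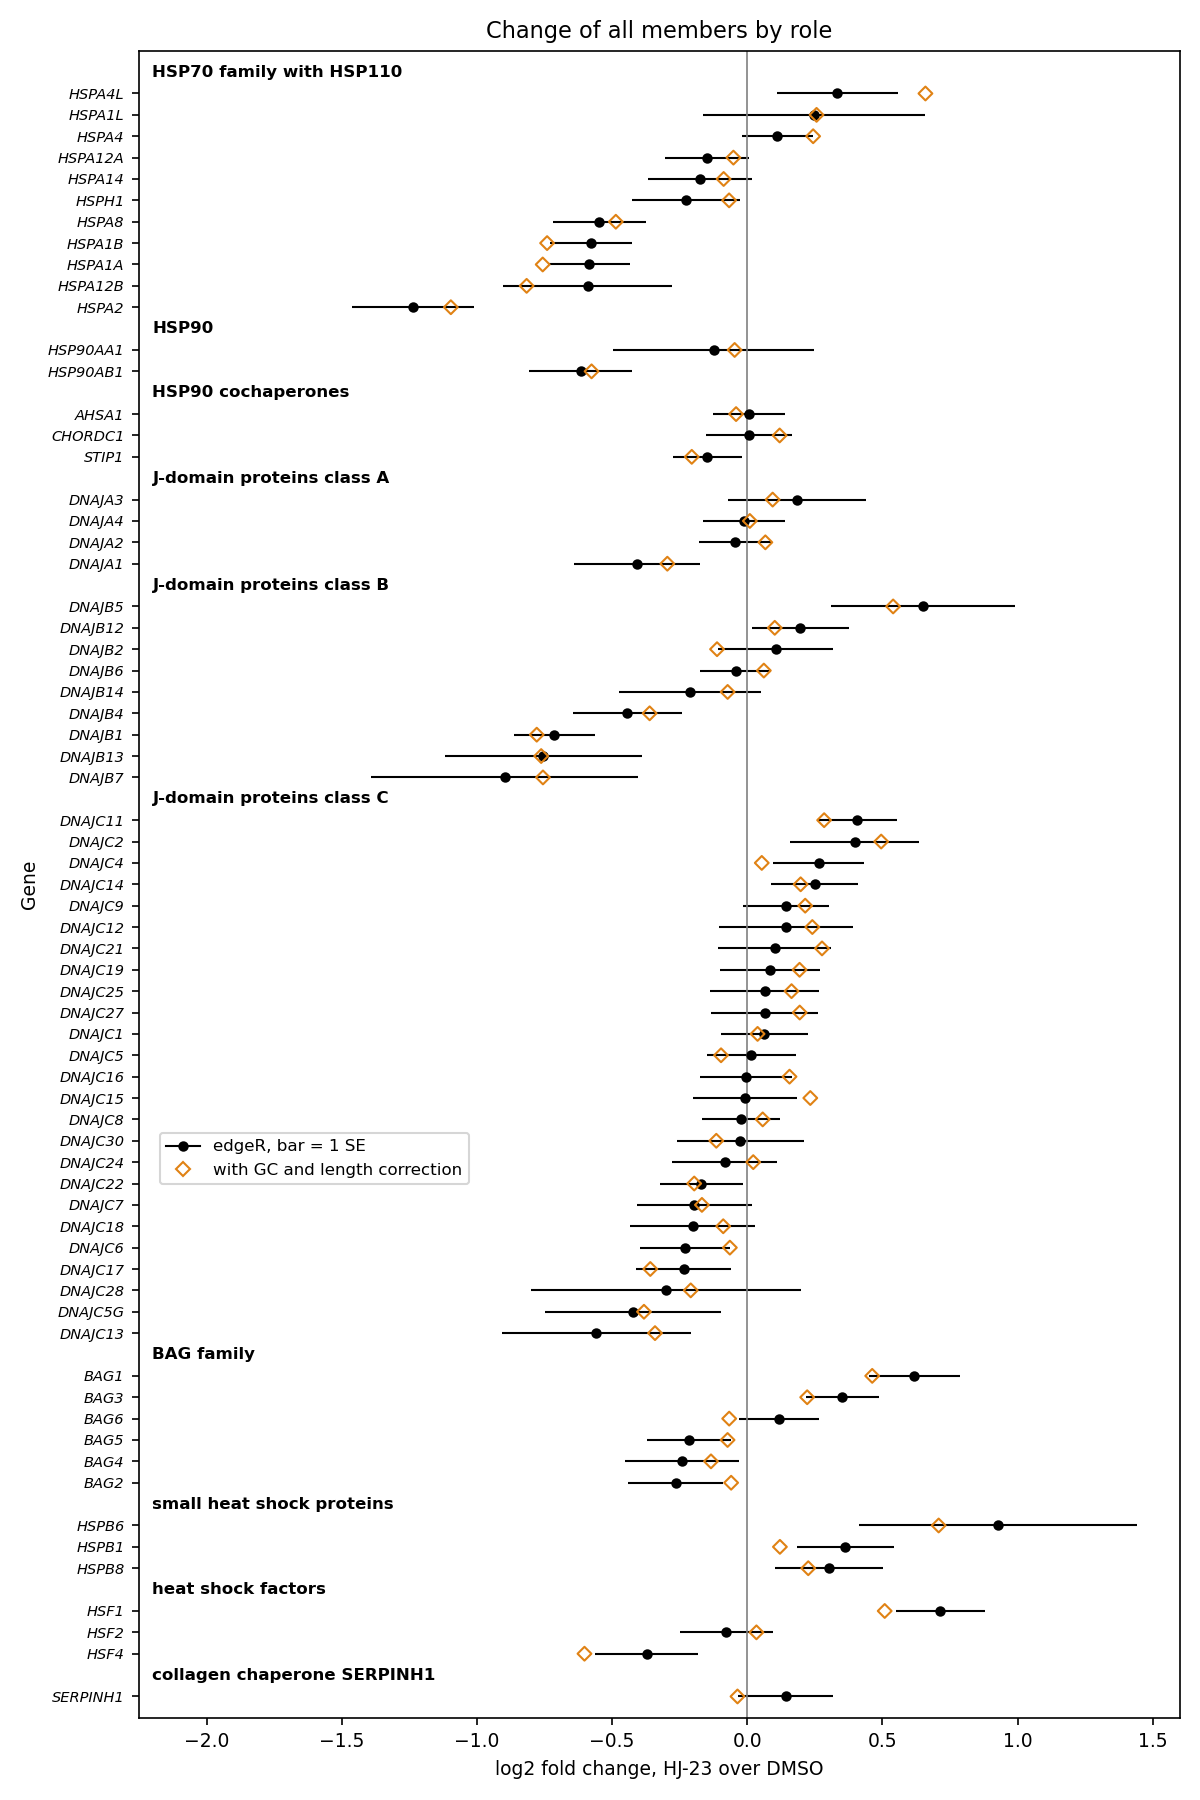
Log2 fold change, HJ-23 over DMSO (x axis), of each of the 67 genes (y axis) grouped by role, with bars of 1 standard error from edgeR and open diamonds for the fit with GC and length correction. HSPA2, HSPA1A, HSPA1B, HSPA8, HSP90AB1 and DNAJB1 lie below 0 and HSF1, BAG1, BAG3 and DNAJC11 above 0 in both fits.

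The HSP70 and HSP110 family had 11 genes, of which 8 had a negative and 3 a positive log2 fold change. The median was -0.23 (-0.087 with GC and length correction). Both HJ-23 libraries lay below both DMSO libraries for 6 of the 11, where 21.2% of all genes did, and above for 2, where 24.8% did. The 6 include HSPA1A and HSPA1B, which share most of their sequence and are not independent readouts. Summed over the family, the level was 1694 and 1566 CPM with HJ-23, against 2058 and 2341 CPM with DMSO, and the groups did not overlap. HSPA8 supplied most of this sum. No gene of the family passed the edgeR test, and DESeq2 called HSPA2 lower.

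HSPA1A and HSPA1B, which encode the stress-inducible HSP70, are neighbours on chromosome 6. HSPA1A had 105 and 123 CPM in the HJ-23 libraries, against 179.9 and 162 CPM in the DMSO libraries. HSPA1B had 201 and 242 CPM with HJ-23, against 346 and 316 CPM with DMSO. For both genes every HJ-23 library was below every DMSO library. The log2 fold change was -0.58 (SE 0.15, edgeR adjusted p = 0.288) for HSPA1A and -0.58 (SE 0.15, edgeR adjusted p = 0.299) for HSPA1B. With the GC and length correction the values were -0.76 and -0.74, and edgeR's adjusted p was 0.0557 for both. These genes are not independent readouts, since 72.6% of the 50-base stretches of HSPA1A transcripts also occur in HSPA1B and 71.4% of those of HSPA1B in HSPA1A. Their sum was 307 and 365 CPM with HJ-23 and 526 and 478 CPM with DMSO. It does not depend on how reads were divided between them, provided no shared read was dropped or counted for both. AL671762.1 overlaps 36.5% of the exon bases of HSPA1B on the same strand, so reads could also have been placed outside the pair.

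HSPA8, the constitutive HSC70, had the highest mean CPM among the 11 HSP70 and HSP110 genes described here. It had 956 and 827 CPM in HJ-23 libraries, against 1157 and 1448 CPM in DMSO libraries, and the groups did not overlap. This gave a log2 fold change of -0.55 (SE 0.17, edgeR adjusted p = 0.334), and -0.49 with the correction. Pseudogene copies carry 50-base stretches in common with HSPA8, 15.4% of its total in any other gene, so its level is uncertain by reads that could have been placed elsewhere. HSPA6, known in human cells for expression almost only after strong heat or proteotoxic stress, had 0 counts in all 4 libraries. A floor of 6 counts (3 fragments with both mates counted) allows levels of up to 0.172 to 0.202 CPM without TMM scaling, for counting error only.

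HSPA2, a testis-enriched HSP70 named here after its values were seen, had the most negative log2 fold change of the 67 genes at a low level. Its level was 2.17 and 1.95 CPM with HJ-23, against 4.80 and 4.92 CPM with DMSO, without overlap. The log2 fold change was -1.24 (SE 0.22), with an adjusted p of 0.206 in edgeR and 0.0479 in DESeq2, and -1.10 with the correction (edgeR adjusted p = 0.109). HSPH1, the nucleotide exchange factor induced by heat, had 72.1 and 58.9 CPM with HJ-23 and 65.3 and 87.9 CPM with DMSO, and its groups overlapped. Its log2 fold change was -0.23 (SE 0.20, -0.067 with the correction), and between -0.43 and -0.02 with a library left out. HSPA4L, a close relative, had 77.5 and 53.7 CPM with HJ-23 and 46.8 and 57.4 CPM with DMSO. These groups overlapped too, with a log2 fold change of 0.33 (SE 0.22, edgeR adjusted p = 0.567), and 0.66 with the correction (edgeR adjusted p = 0.0875). Without HJ-23 replicate 1 the HSPA4L value was 0.025, and without HJ-23 replicate 2 it was 0.55. HSPA4, also of HSP110 type and named after its values were seen, had 214 and 195 CPM with HJ-23 and 187 and 191 CPM with DMSO (log2 fold change 0.11, and 0.24 with the correction).

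HSP90AB1 and HSP90AA1, the constitutive and the more inducible cytosolic HSP90, had the highest mean CPM of the 67 genes over the 4 libraries, although HSPA8 was above HSP90AA1 in DMSO replicate 1. HSP90AB1 had 1662 and 1421 CPM in HJ-23 libraries, against 2020.5 and 2704 CPM in DMSO libraries, without overlap. Its log2 fold change was -0.62 (SE 0.19, edgeR adjusted p = 0.333), and -0.58 with the correction. HSP90AA1 had 1656 and 881 CPM with HJ-23, against 1045 and 1721 CPM with DMSO, so in order of level the libraries of the groups alternated. Its log2 fold change was -0.12 (SE 0.37, edgeR adjusted p = 0.91; -0.047 with the correction), and it turned positive or more negative depending on which library was left out, between -0.67 and 0.26. Of the 50-base stretches of the transcripts, 18.8% for HSP90AB1 and 18.2% for HSP90AA1 also occur in other genes, with most of them in the pseudogenes HSP90AB3P and HSP90AA2P.

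The HSP90 cochaperones lay close to 0 on the log2 fold change scale. STIP1 (HOP), the adaptor that hands clients from HSP70 to HSP90, had 321 and 331 CPM with HJ-23, against 369.9 and 353 CPM with DMSO. The groups did not overlap, and the log2 fold change was -0.15 (SE 0.13, edgeR adjusted p = 0.65), and -0.21 with the correction. AHSA1, the activator of the HSP90 ATPase, had 111 and 113 CPM with HJ-23 and 107 and 116 CPM with DMSO. CHORDC1, a partner of HSP90 whose promoter is printed above, had 68.3 and 56.4 CPM with HJ-23 and 62.8 and 61.3 CPM with DMSO. For AHSA1 and CHORDC1 the DMSO values lay inside or around the HJ-23 values, with log2 fold changes of 0.0079 (SE 0.13) and 0.0067 (SE 0.16), whose sign changed with the scaling. With the GC and length correction they were -0.041 and 0.12.

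The J-domain proteins made up 38 of the 67 genes, 4 of class A, 9 of class B and 25 of class C. Classes A and B carry a glycine and phenylalanine rich linker and act broadly in folding, and class C proteins share only the J domain. The median log2 fold change was -0.029 in class A, -0.21 in class B and -0.0038 in class C, and with the correction 0.038, -0.11 and 0.054. Class A and class B had 1 and 3 genes with a positive value and 3 and 6 with a negative one, and class C had 12 positive and 13 negative. None passed the edgeR test, and DESeq2 called DNAJB1 lower.

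DNAJB1 (HSP40), the heat-inducible J-domain partner of HSPA1A, had the most negative log2 fold change among genes with a mean of at least 10 CPM. It had 274 and 324 CPM in HJ-23 libraries, against 513 and 467 CPM in DMSO libraries, and the groups were well apart. The log2 fold change was -0.71 (SE 0.15), a fold of 0.61, with an adjusted p of 0.233 in edgeR and 0.0095 in DESeq2. With GC and length correction it was -0.78 (edgeR adjusted p = 0.0646). Leaving out any library kept it between -0.86 and -0.62. DNAJB1 supplied a large part of the class B sum, which was 624.5 and 665.3 CPM with HJ-23, against 873.6 and 815.8 CPM with DMSO.

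DNAJB4, a close relative of DNAJB1, had 55.1 and 39.2 CPM with HJ-23, against 65.9 and 62.3 CPM with DMSO, without overlap (log2 fold change -0.44, SE 0.20, edgeR adjusted p = 0.45). It was -0.36 with the correction, -0.73 when HJ-23 replicate 1 was left out and -0.24 when replicate 2 was. DNAJB5, another relative, stood on the other side with 33.2 and 35.1 CPM with HJ-23, against 14.2 and 29.4 CPM with DMSO. Its log2 fold change was 0.65 (SE 0.34, edgeR adjusted p = 0.481) and depended on the DMSO library used, since it was 0.22 without DMSO replicate 1 and 1.24 without DMSO replicate 2, and with the correction it was 0.54. DNAJA1, the main class A partner of HSC70, had 115 and 87.1 CPM with HJ-23 and 109.6 and 159 CPM with DMSO. The DNAJA1 groups overlapped, and the log2 fold change was -0.41 (SE 0.23, edgeR adjusted p = 0.51). With the correction it was -0.30, and with a library left out between -0.65 and -0.14.

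In class C, DNAJC11, a protein of the mitochondrial outer membrane, had 54.7 and 54.1 CPM with HJ-23, against 41.5 and 40.5 CPM with DMSO. The replicates were close and the groups apart, with a log2 fold change of 0.41 (SE 0.15, edgeR adjusted p = 0.379), and 0.28 with the correction. THAP3 on the opposite strand overlaps 27.9% of its exon bases, and whether counting used strand is not stated in the labels. DNAJC2 (zuotin), part of the ribosome-associated complex, had 40.2 and 27.6 CPM with HJ-23 and 23.04 and 28.5 CPM with DMSO, and the groups overlapped (log2 fold change 0.40, SE 0.24, and 0.50 with the correction). The DNAJC2 value was 0.082 when HJ-23 replicate 1 was left out and 0.62 when replicate 2 was. DNAJC13, an endosomal protein, had 34.5 and 18.9 CPM with HJ-23 and 30.6 and 48.1 CPM with DMSO. Its groups overlapped as well (log2 fold change -0.56, SE 0.35, edgeR adjusted p = 0.545, and -0.34 with the correction). Without HJ-23 replicate 1 it was -1.07, and without HJ-23 replicate 2 it was -0.21. The DNAJC13 levels followed the same order of libraries as those of HSP90AA1. The other class C genes with a mean of at least 10 CPM had smaller log2 fold changes than these in either direction.

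The BAG genes encode nucleotide exchange factors of HSP70. Their log2 fold changes were positive for 3 and negative for 3, around a median of -0.048 (-0.063 with the correction). BAG3, which links HSP70 to small heat shock proteins and autophagy, had 176 and 185 CPM with HJ-23, against 148 and 135 CPM with DMSO. This gave a log2 fold change of 0.35 (SE 0.14, edgeR adjusted p = 0.399), and 0.22 with the correction. BAG1, which couples HSP70 to the proteasome, had 25.9 and 29.7 CPM with HJ-23, against 17.5 and 18.7 CPM with DMSO. BAG1 thus had a log2 fold change of 0.62 (SE 0.17, edgeR adjusted p = 0.309), and 0.46 with the correction. For both BAG3 and BAG1 the HJ-23 libraries were above the DMSO libraries without overlap, where 24.8% of all genes were. BAG2 and BAG5, named after their values were seen, were below without overlap, where 21.2% of all genes were. Their log2 fold changes were -0.26 and -0.21 (edgeR adjusted p = 0.562 and 0.598), and -0.060 and -0.073 with the correction. RAB23 on the opposite strand overlaps 42.7% of the exon bases of BAG2.

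Small heat shock proteins form oligomers that hold unfolded proteins until HSP70 acts. Of 7 such genes matched by symbol, 3 met the count minimum, namely HSPB1, HSPB8 and HSPB6. HSPB1 and HSPB8 had both HJ-23 libraries above both DMSO libraries, where 24.8% of all genes did. HSPB1 (HSP27) had 370.4 and 495 CPM with HJ-23, against 355 and 318 CPM with DMSO. HSPB1 differed more between the HJ-23 libraries than HJ-23 replicate 1 did from DMSO replicate 1. Its log2 fold change was 0.36 (SE 0.18, edgeR adjusted p = 0.469), and 0.12 with the correction at a transcript GC content of 64.5%. Without HJ-23 replicate 2 it was 0.11, and without HJ-23 replicate 1 it was 0.54. HSPB8, the partner of BAG3, had 14.0 and 12.6 CPM with HJ-23 and 9.56 and 12.03 CPM with DMSO (log2 fold change 0.30, SE 0.20, and 0.23 with the correction). HSPB6 was the gene just inside the count minimum, with 14 and 17 counts with HJ-23 and 8 and 6 counts with DMSO. It met that minimum through the HJ-23 libraries alone, so its direction was partly set by the choice. Just outside were DNAJC5B, with 7 and 10 counts with HJ-23 and 7 and 0 with DMSO, and HSPB2, with 9 and 14 counts with HJ-23 and 2 and 9 with DMSO. HSPB8 and HSPB6 were named after their values were seen.

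HSF1, the main transcription factor of the heat shock response, had the largest positive log2 fold change among the genes with a mean of at least 10 CPM. It had 116 and 124 CPM in HJ-23 libraries, against 81.2 and 64.9 CPM in DMSO libraries, and the groups did not overlap. The log2 fold change was 0.71 (SE 0.16), a fold of 1.64, with an adjusted p of 0.244 in edgeR and 0.0378 in DESeq2. With GC and length correction it was 0.51 (edgeR adjusted p = 0.155), at a transcript GC content of 63.9%. The transcript of HSF1 thus had the opposite sign to HSPA1A, HSPA1B, DNAJB1 and HSPA8, and the activity of the factor, which is set by trimer formation and phosphorylation, was not measured. HSF2, a second heat shock factor, had 34.4 and 28.7 CPM with HJ-23 and 33.0 and 33.5 CPM with DMSO (log2 fold change -0.077, SE 0.17). SERPINH1 (HSP47) had 61.1 and 79.4 CPM with HJ-23 and 62.1 and 65.1 CPM with DMSO (log2 fold change 0.14, SE 0.18). HSF2 and SERPINH1 both had overlapping groups and changed sign with the GC and length correction, to 0.034 and -0.036.

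**Figure D3:**
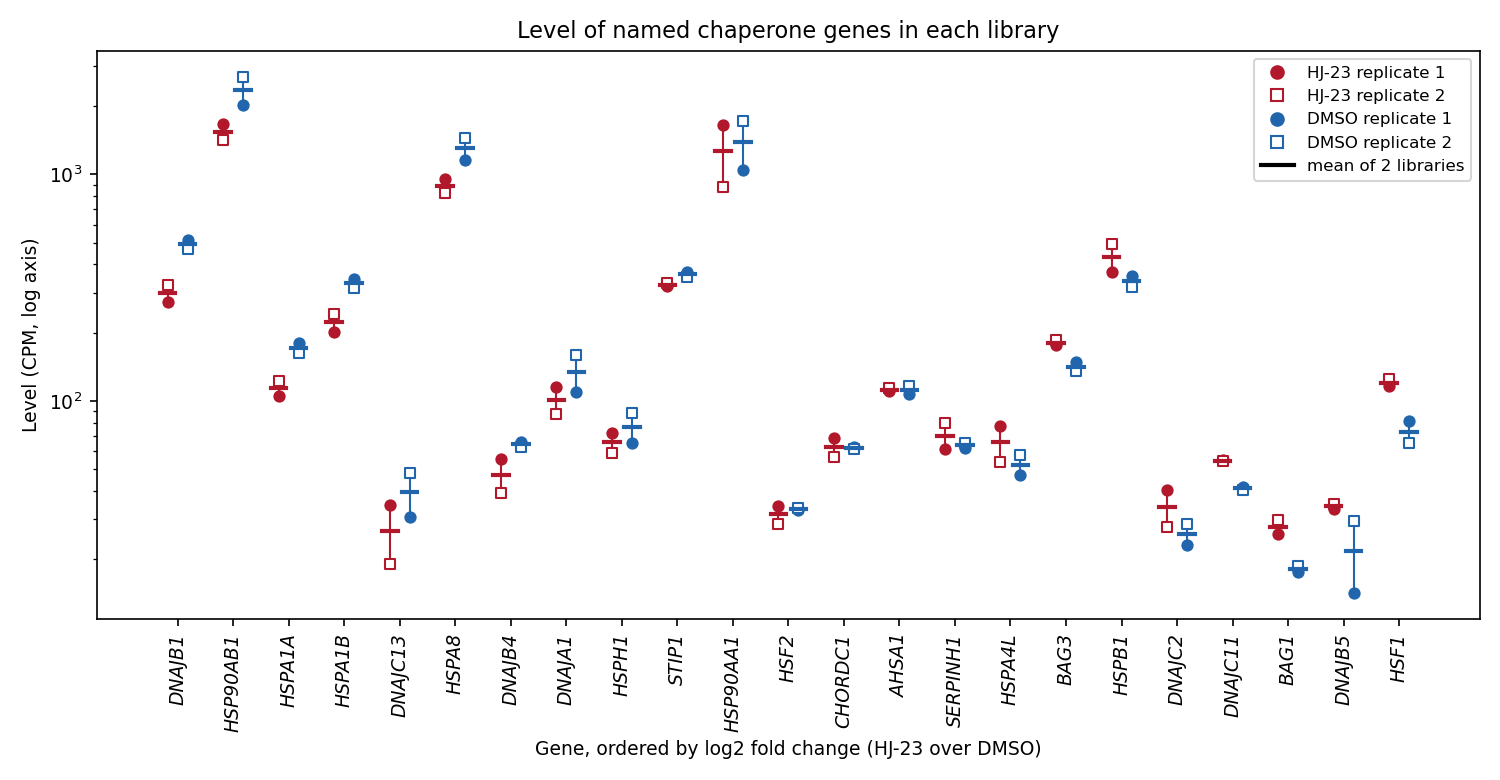
Level in CPM (y axis, log scale) of the 23 named genes in each library, ordered by log2 fold change (x axis), with HJ-23 in red left of DMSO in blue, filled circles for replicate 1, open squares for replicate 2 and lines at the group mean. DNAJB1, HSPA1A, HSPA1B, HSPA8, HSP90AB1, DNAJB4 and STIP1 are lower in both HJ-23 libraries, where 21.2% of all genes are. HSF1, BAG1, BAG3, DNAJC11, DNAJB5 and HSPB1 are higher in both, where 24.8% of all genes are. HSP90AA1 shows the widest spread within groups among the abundant genes.

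Divided by transcript length, HSP90AB1 had the highest mean level in both groups, at 577 CPM per kb with HJ-23 and 883 with DMSO. The order below it differed between groups. With HJ-23 it went on with HSPB1 (476 CPM per kb), HSP90AA1 (375), HSPA8 (362), STIP1 (149) and DNAJB1 (132). With DMSO it went on with HSPA8 (529 CPM per kb), HSP90AA1 (409), HSPB1 (370.1), DNAJB1 (217) and STIP1 (165). HSPB1, HSP90AA1 and HSPA8 were neighbours whose order depended on the library, since HSP90AA1 alone ranged from 881 to 1656 CPM between the HJ-23 libraries. Further down, HSPA1B had 88.0 CPM per kb with HJ-23 and 131 with DMSO, and BAG3 had 70.1 CPM per kb with HJ-23 and 54.9 with DMSO. At the low end, 12 of the 67 genes had a mean below 10 CPM.

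**Figure D4:**
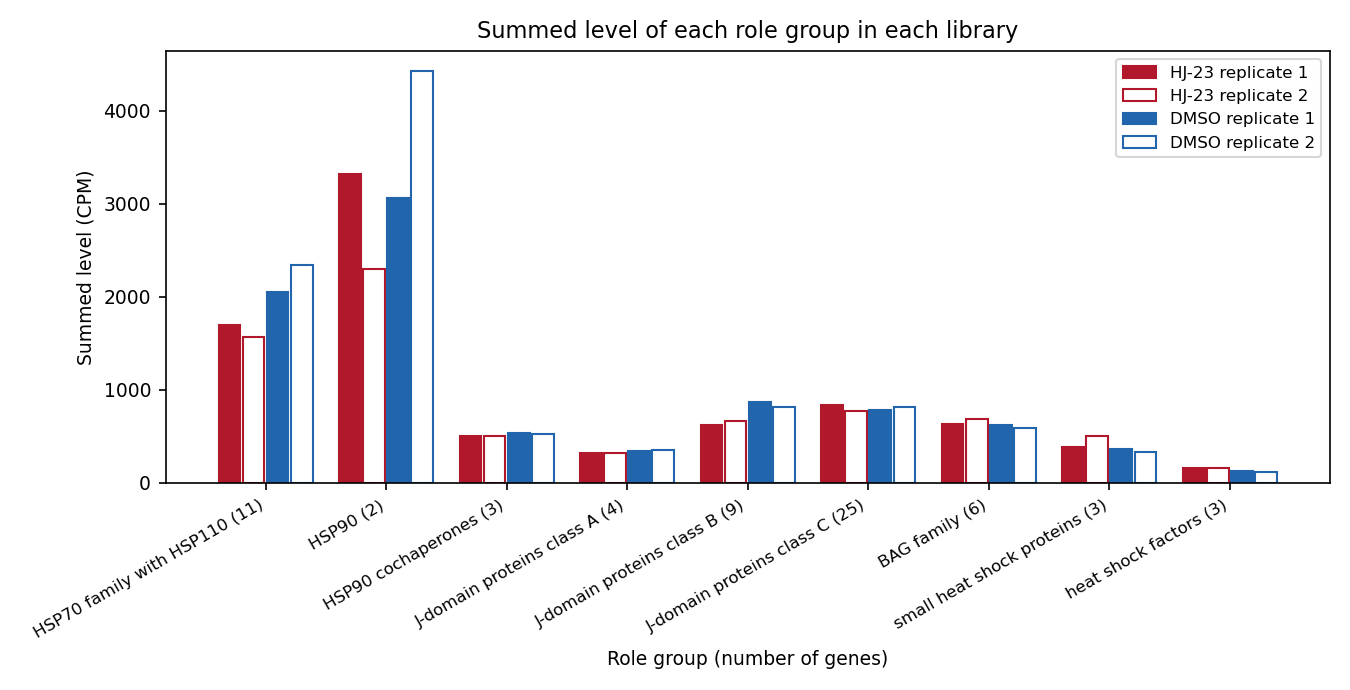
Summed level in CPM (y axis) of the genes of each role group (x axis, number of genes in brackets) in each library, with HJ-23 in red left of DMSO in blue, filled bars for replicate 1 and open bars for replicate 2. The sums of the HSP70 family, the HSP90 cochaperones and J-domain classes A and B are lower in both HJ-23 libraries. Those of the BAG family, the small heat shock proteins and the heat shock factors are higher in both. The HSP90 and class C sums overlap between the groups. Of the heat shock factors, HSF1 alone had a positive log2 fold change.

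Summed over all 67 genes, the level was 8544 and 7571 CPM with HJ-23 and 8833 and 10389 CPM with DMSO, and the groups did not overlap. The largest parts of these sums came from HSP90AB1, HSPA8 and HSP90AA1. Their group means were 1542, 892 and 1269 CPM with HJ-23, against 2362, 1302 and 1383 CPM with DMSO. The median log2 fold change of the 67 genes was -0.026. The HSP90 sum was 3319 and 2302 CPM with HJ-23 and 3065 and 4425 CPM with DMSO, and these groups overlapped. The small heat shock protein sum was 385 and 508 CPM with HJ-23, against 364 and 330.5 CPM with DMSO. The heat shock factor sum was 160.5 and 165 CPM with HJ-23, against 130.1 and 112 CPM with DMSO. HSF1 supplied most of it and alone had a positive log2 fold change, while HSF2 and HSF4 were negative (group median -0.077). With 2 libraries against 2, a two-sided exact permutation test of such a sum cannot go below p = 0.333, so none was run.

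Patterns over the 4 libraries were compared by the root mean square difference of centred log2 CPM, among genes with a mean of at least 10 CPM. Nearest to HSPA1A were HSPA1B (0.017), DNAJB1 (0.066), HSF4 (0.11), DNAJC22 (0.21) and HSPA8 (0.23). HSPA1B shares most of its sequence with HSPA1A, and DNAJB1 does not. Transcript GC content was 59.7% for HSPA1A, 58.7% for HSPA1B, 53.0% for DNAJB1, 64.7% for HSF4, 51.8% for DNAJC22 and 47.0% for HSPA8. The part of GC content in this likeness was not tested. HSF4, a heat shock factor known from the lens, had 10.5 and 12.2 CPM with HJ-23, against 15.9 and 13.5 CPM with DMSO (log2 fold change -0.37, SE 0.19, and -0.60 with the correction). AC074143.1 overlaps 31.4% of its exon bases on the same strand, and 19.1% of the 50-base stretches of HSF4 also occur in that gene. Likeness over 4 libraries is a description, with no test.

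Other genes of protein folding were read from lists chosen with earlier results of these data known, and none of their genes passed the edgeR test. Of 22 further cochaperones of HSP70 and HSP90, 15 had a positive and 7 a negative log2 fold change (median 0.14), from 0.40 for TTC5 to -0.36 for FKBP5 among those with at least 10 CPM. The cytosolic chaperonin TRiC and prefoldin had 8 of 14 genes positive (median 0.084), from 0.37 for PFDN2 to -0.14 for CCT8. Of the 10 chaperones of other compartments, 7 were positive (median 0.08), from 0.45 for HYOU1 to -0.23 for HSP90B1, and HSPA5 (BiP), the endoplasmic reticulum HSP70, had 2628 and 3293 CPM with HJ-23 and 3182 and 2696 CPM with DMSO. For scale, the median of all genes tested was 0.0086, and 51% of them had a positive value.

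The list of other genes known to be induced by heat shock through HSF1 had 16 of 17 genes tested, and the log2 fold change was positive for 11 and negative for 5 (median 0.17). DESeq2 called 3 of them higher. PPP1R15A (GADD34), a phosphatase subunit also induced by the integrated stress response, had 333 and 397 CPM with HJ-23, against 140.5 and 135 CPM with DMSO. Its log2 fold change was 1.40 (SE 0.15), with an adjusted p of 0.0695 in edgeR and 1.27e-10 in DESeq2, and it passed edgeR's test with GC and length correction (1.24, adjusted p = 0.0157). HMOX1, also a target of NRF2, and TNFAIP3, also a target of NF-kB, were the other 2 that DESeq2 called. Their log2 fold changes were 0.83 and 0.65 (edgeR adjusted p = 0.233 and 0.243).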

How the data were processed

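The authors deposited 1 table per library of raw counts, whole numbers for 20263 Ensembl genes without normalization, as the values show. Per the submitters' processing notes, FastQC, Trimmomatic, HISAT2, bedtools and RSEM were used. For genome build, annotation and strand, the choice is not given in the sources used. Of counts from 1 to 8, 69.6% to 72.3% were even, against 49.7% to 50.8% of counts over 50, so both mates of most fragments appear to have been counted.

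Gene names came from a name table (20148 identifiers) or GENCODE 29 alone (76), and 39 had none. GC content, length and shared 50-base stretches came from GENCODE 29, with GC and length from the longest principal transcript of a gene. The tests used edgeR 4.0.16 under R 4.3.3, with TMM factors, filterByExpr (14062 genes kept), its quasi-likelihood test and Benjamini-Hochberg adjustment over all genes. The biological coefficient of variation was 19.6%, with 2 residual and 3.98 prior degrees of freedom. Standard errors were taken from the fold change and the F statistic, as the ratio of the log2 value to the root of F. DESeq2 1.42.0 was an alternative. The GC and length correction removes a smooth trend from each library. Scripts were checked on simulated data.

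Groups and replicate numbers came from the titles. The labels do not say that equal numbers mark a shared culture, so the numbers were not taken to pair libraries. Deviations of same-numbered libraries correlated at -0.18. This value cannot decide pairing, because the ratios within the groups followed GC content in opposite directions (Spearman -0.62 and 0.35). The genes, lists and tests were chosen with earlier results of these data known. Named genes were those passing the test, the 8 highest and 8 lowest by log2 fold change with a mean of at least 10 CPM, and 16 well-known heat shock genes, 23 in all, with the 2 extremes of each other list, of which 1 gene is not reported here. Other genes named were chosen after their values were seen.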

Additional observations from a re-analysis of the deposited data

How the results depend on the processing

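Each group has 2 libraries, which limits the precision of every value here. Over all genes, edgeR called 8 higher and 4 lower. These counts were 161 and 150 with DESeq2, 18 and 13 without a filter on low counts, 0 and 0 with a minimum mean of 10 CPM, 24 and 14 with the GC and length correction, and 0 to 112 and 0 to 161 with a library left out (0 and 0 without either HJ-23 library, 112 and 161 without DMSO replicate 1, 94 and 63 without DMSO replicate 2). With the replicate block they were 136 and 158, and with the block and the GC and length correction 0 and 0. Of the 67 chaperone genes, 0 were called in either direction, also with any library left out. DESeq2 called 1 higher and 2 lower, and the replicate block 0 higher and 1 lower, which was HSPA2 (-1.24, adjusted p = 0.0219). The replicate numbers were not shown to pair the libraries. A crossed pairing, chosen after seeing the data, gave 454 and 512 over all genes and 2 and 7 among the 67.

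With a library left out, the median log2 fold change ranged from -0.14 to -0.034 over the 67 genes, -0.051 to -0.016 over the BAG genes, -0.43 to -0.19 over HSP70 and HSP110, -0.71 to -0.079 over HSP90, -0.14 to -0.035 over the HSP90 cochaperones, -0.11 to -0.038, -0.59 to -0.034 and -0.14 to 0.088 over J-domain classes A, B and C, 0.35 to 0.54 over small heat shock proteins, and -0.23 to 0.024 over heat shock factors. It ranged from 0.054 to 0.18 over other cochaperones, 0.016 to 0.061 over TRiC and prefoldin, 0.043 to 0.15 over other HSF1-induced genes, and 0.0084 to 0.15 over chaperones of other compartments.

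With GC and length correction, and with the replicate block as well, the median was -0.087 and -0.081 over HSP70 and HSP110, 0.038 and 0.037 over J-domain class A, 0.23 and 0.23 over small heat shock proteins, 0.14 and 0.14 over TRiC and prefoldin, and 0.196 and 0.202 over chaperones of other compartments. It was 0.078 over other cochaperones with both, and -0.044 and -0.043 over class A with DESeq2 size factors and with DESeq2.

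Among named genes the sign turned under at least 1 alternative for CHORDC1, AHSA1, SERPINH1, HSF2, HSP90AA1, CCT8 and HSP90B1, and the cause was not tested. Their main values ran from -0.23 for HSP90B1 to 0.14 for SERPINH1. CHORDC1 was -0.0087 with DESeq2 size factors and -0.0077 with DESeq2, and AHSA1 -0.0067 and -0.0057. AHSA1 was -0.041, SERPINH1 -0.036 and HSF2 0.034 with GC and length correction, and -0.040, -0.036 and 0.035 with the replicate block as well. With a library left out, CHORDC1 ranged from -0.16 to 0.11, AHSA1 from -0.048 to 0.042, SERPINH1 from -0.083 to 0.30, HSF2 from -0.23 to 0.024, HSP90AA1 from -0.67 to 0.26, CCT8 from -0.43 to 0.22 and HSP90B1 from -0.53 to 0.033. DNAJB1, HSF1, HSPA2 and PPP1R15A passed under at least 1 alternative.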
